A study of Mus musculus with 28 samples.

Results

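Endothelial cells line the blood vessels of the brain. In the brain they form the blood-brain barrier: tight junctions seal the cells to one another, efflux pumps return lipophilic compounds to the blood, and solute carriers bring in glucose, amino acids and hormones. Vessels of the subependymal zone (SEZ), the adult neurogenic niche beside the lateral ventricle, lie close to neural stem cells and their progeny. Along a vessel tree, arterial, capillary and venous endothelial cells express different genes.

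The cells described here were picked from single-cell RNA profiles of adult mouse SEZ, made by sorting cells into wells of plates and counting 3′ transcript ends with random barcodes (SORT-seq). A well was called an endothelial cell when it held at least 1000 transcripts other than the ERCC spike-ins and when 6 endothelial genes, Flt1, Cldn5, Ly6c1, Slco1a4, Itm2a and Ptprb, together made up at least 15 of every 10000 of those transcripts. Of 2688 wells in 28 libraries, 1789 held enough transcripts, and 68 of these met the rule. The other 1721 wells serve as the contrast.

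The strain was Bl/6, and each of 7 sorts gave 4 libraries of 96 wells. Troy/GFP cells were GFP+ cells of Troy-GFPiresCreER +/ki mice (Troy is Tnfrsf19) aged 8 to 10 weeks. Ki67-RFP cells were RFP+ cells of Ki67-tagRFP ki/ki mice of the same age. The tdTomato sorts came from Ki67-iresCreER +/ki mice with a Rosa-tdTomato +/ki reporter, given 5 mg tamoxifen once. They were taken 2 days later at 8 to 10 weeks, or 60 days later at 16 to 19 weeks. The reporter thus marks cells whose Ki67 locus was active at tamoxifen and their descendants. The mixed day 60 sort joined tdTomato+ cells of SEZ or olfactory bulb with O4+ cells, from mice of 8 to 19 weeks. GLAST/EGF cells bound anti-GLAST antibody, labelled EGF or both, and Prom1/CD24 cells were sorted with antibodies against PROM1 and CD24, both at 8 to 10 weeks. Neither the number of mice behind a library nor whether the 4 libraries of a sort share a plate is given in the labels, so p-values over libraries measure only the spread between libraries, which may be technical.

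The 6 genes of the rule stand on 6 chromosomes of GRCm38. Flt1, a VEGF receptor, spans chr5:147561604-147726011 on the minus strand. Cldn5, the main claudin of the barrier's tight junctions, spans chr16:18776847-18778262 on the plus strand. Ly6c1, a GPI-anchored surface protein, spans chr15:75044018-75048830 (minus). Slco1a4, an organic anion transporter, spans chr6:141805440-141856199 (minus). Itm2a, a membrane protein, spans chrX:107397099-107403376 (minus), and Ptprb, the phosphatase that restrains the angiopoietin receptor, spans chr10:116275523-116389535 (plus). All 6 are annotated as protein coding.

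RefSeq (GRCm38.p6) gives a promoter for 5 of the 6 genes; Ptprb is named only. Shown are the 250 bases before the start of 3 genes that defined the cells together, 5′ to 3′ on the gene's strand: Flt1 at chr5:147726012-147726261 (minus), Cldn5 at chr16:18776597-18776846 (plus) and Itm2a at chrX:107403361-107403610 (minus). Capitals mark CAGGAAG, a sequence of the type bound by ETS factors, or its reverse complement.
Flt1: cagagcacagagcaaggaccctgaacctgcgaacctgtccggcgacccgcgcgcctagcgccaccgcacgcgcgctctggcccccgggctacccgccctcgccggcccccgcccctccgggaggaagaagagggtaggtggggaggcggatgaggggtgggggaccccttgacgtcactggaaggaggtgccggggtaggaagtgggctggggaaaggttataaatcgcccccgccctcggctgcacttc
Cldn5: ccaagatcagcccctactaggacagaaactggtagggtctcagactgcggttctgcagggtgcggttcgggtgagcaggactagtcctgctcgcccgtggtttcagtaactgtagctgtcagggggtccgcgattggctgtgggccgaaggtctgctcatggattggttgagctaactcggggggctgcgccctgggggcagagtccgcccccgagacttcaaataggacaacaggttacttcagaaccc
Itm2a: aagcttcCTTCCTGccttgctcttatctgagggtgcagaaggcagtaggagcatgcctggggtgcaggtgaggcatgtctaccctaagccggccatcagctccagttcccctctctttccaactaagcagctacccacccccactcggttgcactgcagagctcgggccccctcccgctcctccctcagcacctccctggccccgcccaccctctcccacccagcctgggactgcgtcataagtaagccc

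CAGGAAG was searched on both strands and was found in 1 of the 5 genes, Itm2a, at position 8 from the 5′ end of its window on the reverse strand. Of all 27025 genes with a RefSeq window, 12.1% held it, and of all 32851 windows of this length 10.8% did. A second, shorter motif, AGGAAG, which lies within the first, was searched after the Flt1 window had been read, because letters of that kind were seen there. It was found in 4 of the 5 genes, beside 32.3% of all genes with a window and 29.5% of all windows. The count therefore depends on which motif is used, the shorter one was picked from the sequences it was then counted in, and no reading is drawn from either.

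Endothelial markers, with the rule genes among them, led in most of the 68 cells. Of the 16 endothelial markers listed, 6 are the genes of the rule and were high by choice; the other 10 were each at least 4 times higher in them than in the other wells. The rule value chose the members, so it is given as a description: it ran from 16.7 to 336 per 10000, with a median of 172. Just inside the threshold, 5 cells lay between 16.7 and 22.1, and the next was at 47.6. Just outside, the highest wells were at 14.8 and 11.9, and 86.3% of the other wells were at 0. All 6 genes were found in 46 of the cells, 5 genes in 12, 3 or 4 in 6, and fewer than 3 in 4.

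In 10 of the 68 cells the summed markers of another cell type exceeded the endothelial ones, and 5 of these were the cells under 30 per 10000. The endothelial sum includes the rule genes that chose the cells, so its lead in the others is partly fixed by the rule. In the GLAST/EGF cell of library 4, rule genes gave 96.5 of 143 per 10000, beside 69.4 for astrocyte and quiescent stem cell markers. A Prom1/CD24 cell held haemoglobin transcripts at 4528 per 10000. A cell of the mixed day 60 sort held fibroblast markers at 304 and pericyte and smooth muscle markers at 215 per 10000. Over the 68 cells, the median summed level was 0 for pericyte and smooth muscle, fibroblast, microglia, ependymal and erythrocyte markers, and 27.6 per 10000 (0 to 340) for astrocyte and quiescent stem cell markers. Of 15 pericyte and smooth muscle genes, 4 (Kcnj8, Abcc9, Higd1b and Atp13a5) had no transcript in any of the 68 cells; the list summed to 849 CPM against 192 in the other wells, of which Vtn, found in 4 cells, gave 741. Of 12 microglia and macrophage genes, 6 had none, among them Cx3cr1, Csf1r, P2ry12 and Fcer1g, and the list summed to 67.6 against 527.

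**Figure D1:**
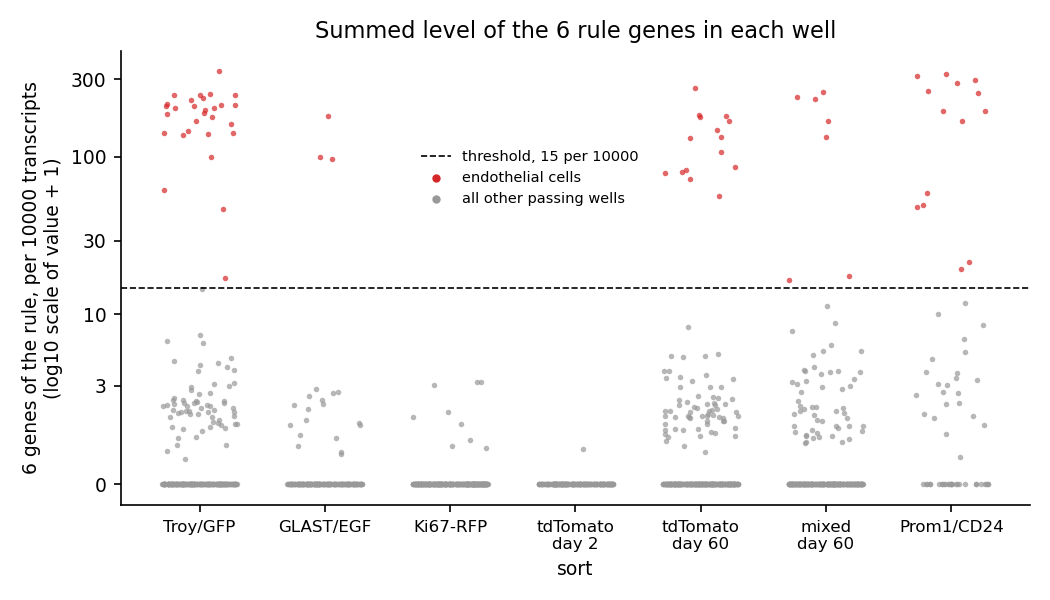
Summed level of the 6 rule genes per 10000 transcripts (vertical axis, log10 scale of value + 1) in every passing well, by sort; red points are the 68 endothelial cells, grey points the other 1721 wells and the dashed line the threshold of 15. Ki67-RFP and tdTomato day 2 wells hold no red point, and 5 red points lie just above the line.

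The mean endothelial share of passing wells ranged from 0% to 22% among sorts, but no pair of sorts passed an adjusted p of 0.05. In Prom1/CD24 libraries 1 to 4 it was 18.2%, 15%, 23.5% and 31.25% of passing wells (mean 22% ± 7.11, SD, n = 4; 14 of 64 wells). In Troy/GFP libraries it was 11.25%, 11.8%, 6.94% and 7.23% (9.32% ± 2.59; 29 of 311). These sorts did not overlap: each Prom1/CD24 library lay above each Troy/GFP library. The separation depends on doubtful cells. Prom1/CD24 library 2 held a cell at a rule value of 22.1, and without it this library falls below Troy/GFP library 2. Prom1/CD24 library 1 held the cell with haemoglobin transcripts, and without it this library falls below Troy/GFP library 1.

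At day 60 after tamoxifen the tdTomato libraries held 2.25%, 2.35%, 7.87% and 4.65% (4.28% ± 2.64; 15 of 349). The mixed day 60 libraries held 1.2%, 0%, 0% and 7.89% (2.27% ± 3.79; 7 of 314), so that a single library gave most of the cells. GLAST/EGF libraries held 0%, 4.26%, 0% and 1.61% (1.47% ± 2.01; 3 of 216). No endothelial cell was found among 315 Ki67-RFP wells, which allows a share of up to 0.952%, or among 220 tdTomato day 2 wells, which allows up to 1.36%; these limits cover counting error only.

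Over the 21 pairs of sorts, 11 did not overlap, each with p = 0.0286 in a two-sided exact permutation test, the smallest that 4 against 4 libraries allows. With Benjamini-Hochberg adjustment over the 21 pairs these became 0.0545, so no pair passed 0.05. Troy/GFP and tdTomato day 60 overlapped (exact permutation p = 0.0857, adjusted 0.138).

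The order at the top depended on the denominator. Only 64 of 384 Prom1/CD24 wells (16.7%) held 1000 transcripts, against 81% in Troy/GFP and 90.9% in tdTomato day 60. Of all 384 wells, the endothelial share was 3.65% ± 1.34 in Prom1/CD24 and 7.55% ± 2.15 in Troy/GFP, with the order turned (exact permutation p = 0.0571, adjusted 0.133). The names of the tables hold 2 sequencing runs, A and B. Run B held the first and second Troy/GFP libraries together with GLAST/EGF libraries 3 and 4, and the day 2 tables name no run. Within run A, the Troy/GFP share was 7.09% (2 libraries) and the GLAST/EGF share 2.13%; in run B they were 11.5% and 0.806%.

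**Figure D2:**
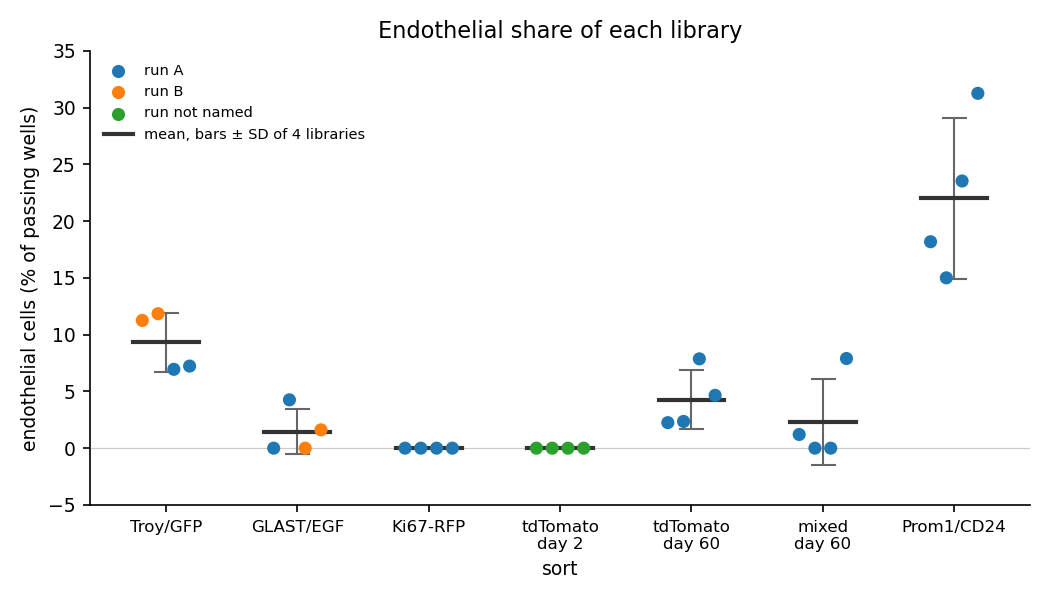
Endothelial cells as a percent of passing wells (vertical axis) in each of the 4 libraries of each sort, coloured by the run in the tables' names; bars are the mean ± SD. Prom1/CD24 libraries lie between 15% and 31.25%, above every other library, and Ki67-RFP and day 2 libraries lie at 0%.

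Levels of genes in the endothelial cells are given as transcripts per 1000000 (CPM), pooled over the 68 cells, beside the pooled level of the 1721 other wells. Because the rule used genes of these same wells, the contrast is a description without a test, and the 3′ tags allow no comparison of levels between genes. Of 7345 genes with enough transcripts to compare, 819 (11.2%) were at least 4 times higher in the endothelial cells and 671 (9.14%) at least 4 times lower. Of the former, 502 were found in at least 25% of the cells; the rest include genes carried by few cells. The median log2 ratio over all compared genes was -0.22.

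The rule genes themselves ranged widely between libraries. Over the 14 libraries with at least 2 endothelial cells, Flt1 lay between 332 and 2889 CPM (median 1393), Cldn5 between 599 and 2641 (1291) and Ly6c1 between 1753 and 8116 (3264). Slco1a4 lay between 197 and 4977 CPM (2298), Itm2a between 555 and 8456 (2970) and Ptprb between 1043 and 5458 (3209). Slco1a4 and Itm2a spread the most, and Cldn5 the least. Ly6c1 has a near-identical neighbour, Ly6c2, listed at 53.4 CPM in the endothelial cells, and the split of reads between them is uncertain.

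Leaving out the rule gene Cldn5, 9 of 11 junction genes were at least 4 times above the other wells (median log2 ratio 5.71). Pecam1, which joins endothelial cells to each other, was at 502 CPM against 2.85, and Esam, an adhesion molecule of the junctions, at 652 against 1.90. Lsr, a tricellular junction protein, was at 339 against 3.79. Tjp1, the scaffold that ties junctions to actin, was at 682 against 108, and Jam2 at 343 against 120, a ratio of 2.87.

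The barrier's transporters followed. Of 4 ABC efflux transporters compared, 3 were at least 4 times higher: Abcb1a (P-glycoprotein) at 1508 CPM against 5.51, Abcg2 at 717 against 13.1 and Abcc4 at 418 against 10.6. Abcc5 was at 60.5 against 114. Among solute carriers other than the rule gene Slco1a4, 14 of 18 compared were too (median 2.85). The glucose transporter Slc2a1 was at 1510 against 55.4, the taurine transporter Slc6a6 at 2236 against 60.2 and the amino acid transporter Slc38a5 at 542 against 0.569. Slco1c1, a thyroid hormone carrier, was at 1252 against 273, and was thus present in the other wells too.

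Receptors and ligands of vessel growth hold the rule genes Flt1 and Ptprb; without them, 12 of 13 were at least 4 times higher (median 6.31). Tie1, an orphan partner of the angiopoietin receptor, was at 652 CPM against 3.13, Eng, a TGF-beta co-receptor, at 483 against 6.11 and Nrp1, a VEGF and semaphorin co-receptor, at 820 against 49.1. In the Notch list 5 of 7 passed (median 2.39), among them Notch4 at 150 against 6.07; Notch1 was at 164 against 193. In the Wnt and barrier induction list 9 of 15 passed (median 3.51). Foxq1 was at 426 against 1.04, Sox17 at 376 against 1.04 and Lef1, a nuclear effector of Wnt signalling, at 261 against 10.3, while Ctnnb1 (beta-catenin) was at 1089 against 613.

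All 17 endothelial transcription factors compared were at least 4 times higher (median 5.47). Epas1, a hypoxia-inducible factor, was at 2495 CPM against 122, and Klf4 and Klf2, flow-responsive factors, were at 1553 against 34.9 and at 984 against 28.7. Gata2 was at 332 against 1.42. In the caveolae list, Cav1, the coat protein, was at 569 against 9.99 and Sdpr at 824 against 10.4 (6 of 7 passed, median 5.56).

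Extracellular matrix and signalling genes behaved unevenly. Col4a1 and Col4a2, the basement membrane collagens, were at 329 against 20.4 and at 271 against 19.4 CPM, but Sparcl1 was at 2068 against 2199 (10 of 12 of the list passed, median 3.31). Of 12 G protein coupled and small GTPase genes, 10 passed (median 6.50): Gpr116 was at 1212 against 2.85 and the endothelin Edn1 at 345 against 0.569, while S1pr1 was at 686 against 746. Without the rule genes Ly6c1 and Itm2a, all 14 leukocyte adhesion, clotting and Ly6 genes compared passed (median 6.47), among them von Willebrand factor, Vwf, at 1242 against 1.14 and Ly6a at 2650 against 8.74.

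Interferon and MHC class I genes gave 13 of 15 at least 4 times higher (median 3.25), with B2m at 2937 CPM against 229 and Ifitm3 at 1408 against 74.2. Immediate early genes gave 14 of 16 (median 2.86), with Fos at 2014 against 329 and Jun at 2134 against 404. Cell cycle genes lay the other way: 14 of 15 were at least 4 times lower than in the other wells (median -3.27). Pcna was at 185 against 848 and Hmgb2 at 39.1 against 670. The other wells include 315 Ki67-RFP and 220 tdTomato day 2 wells, sorted by way of Ki67, so these ratios depend on the sorts in the contrast.

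**Figure D3:**
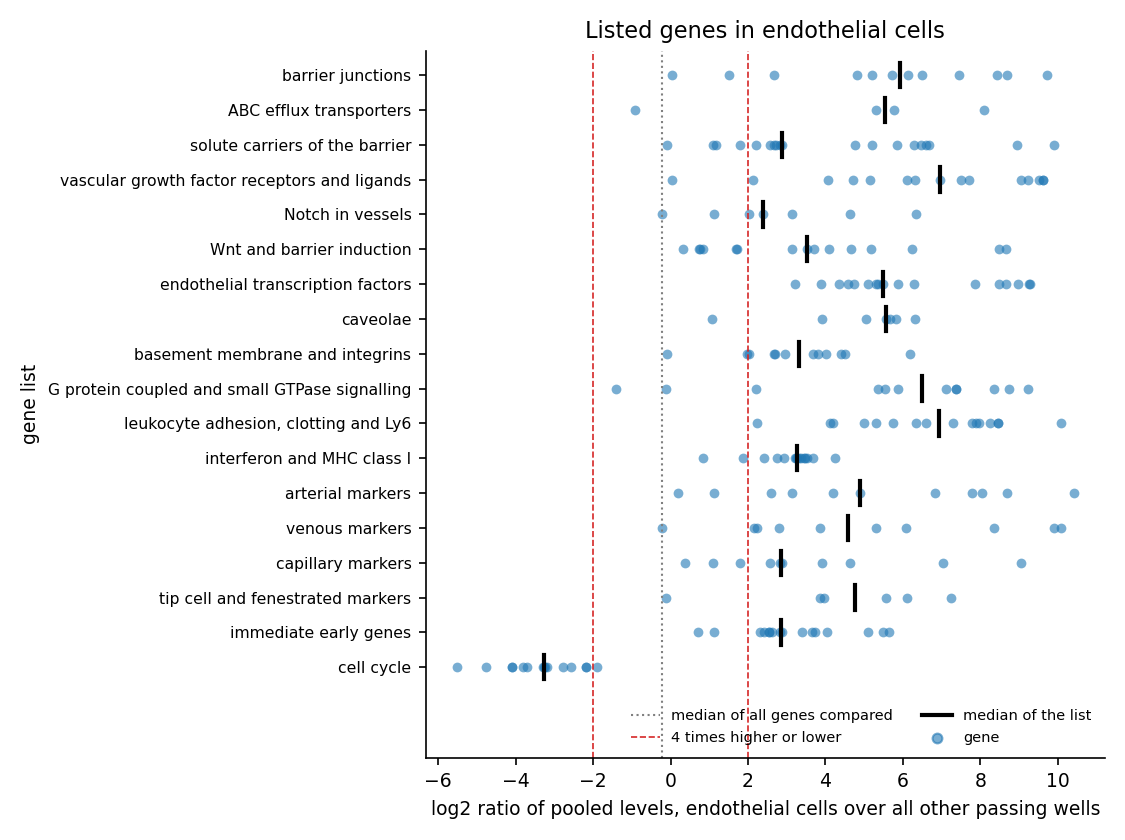
Log2 ratio of the pooled level in 68 endothelial cells over that in 1721 other wells (horizontal axis) for each gene of 18 lists (rows); black bars are list medians, the dotted line the median of all genes compared (-0.22) and the dashed lines 4 times higher or lower. The cell cycle list lies left of 0 and the other list medians lie to the right.

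Of the genes the sorts are named after, Prom1 was the highest relative to the other wells: 275 CPM against 17.8, found in 36 of the 68 cells. By sort it was 240 in Troy/GFP, 175 in GLAST/EGF, 268 in tdTomato day 60, 538 in the mixed sort and 244 in Prom1/CD24 endothelial cells, with no test. Cd24a was at 487 against 526. By sort it was 57.7 in Troy/GFP, 34.9 in GLAST/EGF, 1219 at day 60, 158 in the mixed sort and 840 in Prom1/CD24 endothelial cells. The day 60 level came mostly from 3 cells with Plvap, described below: Cd24a was at 4161 CPM in them and 298 in the other 12. In Prom1/CD24, the Plvap cell of library 3 held 20.8 Cd24a transcripts. Tnfrsf19 (Troy) was at 118 against 94.1, and at 134 in Troy/GFP endothelial cells beside 123 in the other Troy/GFP wells. Mki67 had 1 transcript in all 68 cells, 3.56 CPM against 290 in other wells that include the Ki67-RFP sort. Slc1a3 (GLAST) was at 289 against 1716 and Egfr at 28.5 against 146.

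Outside the lists, the 12 genes with the largest ratios among those found in at least 25% of the cells were She, Mmrn2, Ccm2l, Gm694, Grrp1, Adcy4, Tmem252, Ushbp1, AU021092, Podxl, Slc35f2 and Vsig2. Mmrn2, a matrix protein of endothelium, was at 679 CPM against 0.853, Podxl, a sialomucin, at 1103 against 3.41 and She, an adaptor protein, at 239 against 0.284. Gm694 had no transcript in the other wells and was at least 578-fold higher, counted against a floor of 3 transcripts over the group.

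The arterial marker Gkn3 and the marker Slc38a5 were mostly found in different cells. Gkn3, an arterial marker of brain vessels, was found in 16 cells and Slc38a5, used as a capillary and venous marker, in 33, and only 1 cell held both. Of the 16 Gkn3 cells, 14 held Mgp, 13 Vegfc and 9 Bmx, all arterial genes, and 1 held the capillary gene Car4. Of the 33 Slc38a5 cells, 21 held Car4. Lcn2 was found in 9 cells, each of which also held Slc38a5 and Vwf. Of all 68 cells, 30 held Mgp, 17 Vegfc, 13 Bmx, 27 Car4 and 49 Vwf. Summed arterial markers ran from 0 to 245 per 10000 (median 9.70), venous from 0 to 265 (29.2) and capillary from 0 to 100.8 (21.4). Arterial transcripts exceeded venous ones in 25 cells and the reverse held in 40. Over the 68 cells, as a description, Pearson's r was -0.42 between arterial and capillary sums, -0.13 between arterial and venous and -0.03 between venous and capillary. Cells with few transcripts can lack a marker by sampling alone, and their libraries are shared.

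A few cells held Plvap, the diaphragm protein of fenestrated vessels outside the barrier. They were singled out after the values were seen and are described without a test. Plvap was found in 5 cells, with at least 3 transcripts in 4: 1 of tdTomato day 60 library 2, 2 of library 3 and 1 of Prom1/CD24 library 3. The fifth, of Troy/GFP library 4, held 1 transcript at a rule value of 17.4. Pooled over the 5 cells, Plvap was at 2309 CPM, Esm1, a tip cell marker, at 461, Nrp1 at 4693 and Cd24a at 3496, against 0, 0, 423 and 178 in the other 63. Cldn5, Slc38a5, Foxq1, Lef1 and Prom1 were at 0 in the 5 cells, and Slco1a4 was at 115 against 2860. Of the other rule genes, Flt1 was at 2019 against 1439, Ly6c1 at 1911 against 3705, Ptprb at 1890 against 3424 and Itm2a at 499 against 3240. The junction genes Pecam1 and Cdh5 were at 771 against 474 and at 422 against 173.

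**Figure D4:**
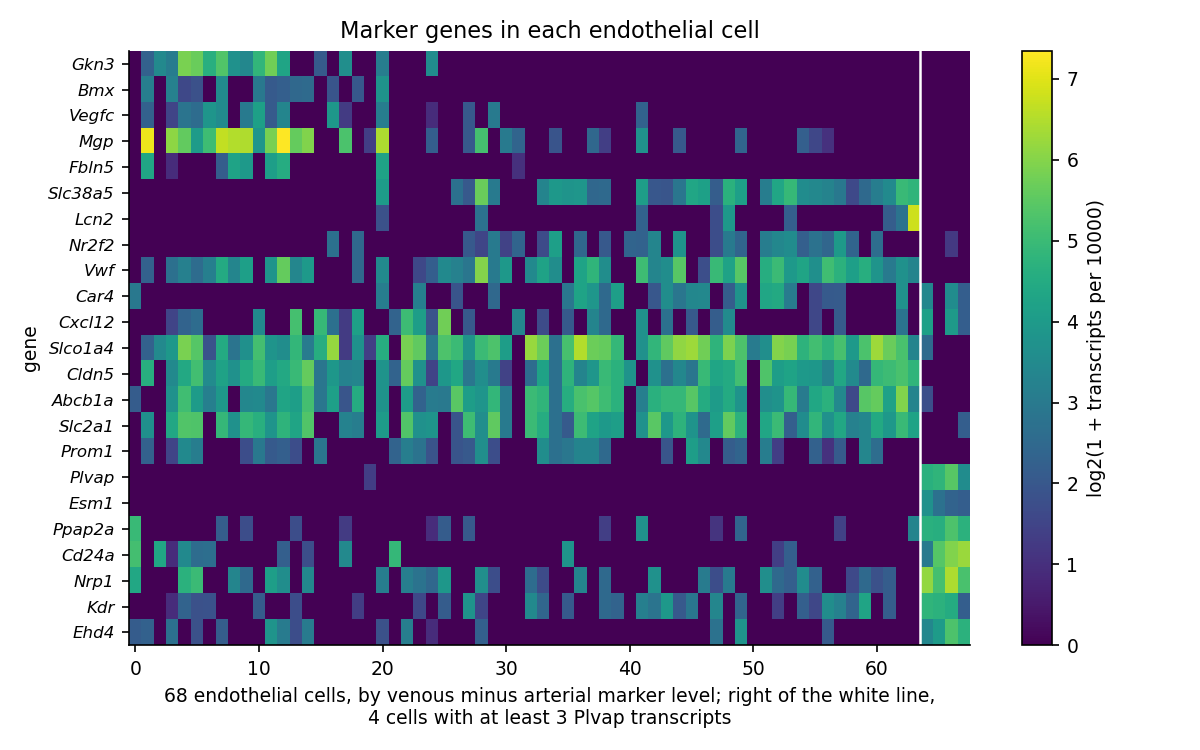
Level of 23 marker genes (rows, log2 of 1 + transcripts per 10000, colour) in each of the 68 endothelial cells (columns), ordered by venous minus arterial marker level; the 4 cells right of the white line have at least 3 Plvap transcripts. Gkn3, Bmx and Mgp fill the left and Slc38a5 the right, which the order itself brings about, as they belong to the arterial and venous lists. Car4, a capillary marker outside both lists, also lies to the right, and the Plvap cells hold no Cldn5.

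The endothelial cells of 3 sorts could be compared with each other, as each had 4 libraries with at least 2 such cells (2 to 9 cells and 5078 to 38113 transcripts a library): Troy/GFP, tdTomato day 60 and Prom1/CD24. GLAST/EGF and the mixed sort had 1 such library each and were not tested. Transcripts were summed per library and tested with limma voom and Benjamini-Hochberg adjustment over 1287 genes. Few genes passed: 1 (0.0777%) between day 60 and Troy/GFP, 5 (0.389%) between Prom1/CD24 and Troy/GFP and 3 (0.233%) between day 60 and Prom1/CD24. At an unadjusted p below 0.05 there were 128, 162 and 119. The libraries of a pair did not overlap for 86, 123 and 68 genes. No gene of any of the 18 lists passed in any of the 3 pairs, so none is shown to differ and none is shown to be alike. Each sort enters a pair of these comparisons, so they share libraries. Of the 5 in Prom1/CD24 against Troy/GFP, 4 (0.311%) were lower in Prom1/CD24. Within run A alone, with 2 Troy/GFP libraries, the first comparison gave 0 genes and the second 3.

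The genes that passed also differed in the other wells of the same libraries, except Camk2n1. Malat1, an abundant nuclear RNA, was at 30916, 19455, 27306 and 27182 scaled CPM in Troy/GFP libraries 1 to 4 and at 790, 5341, 6352 and 8402 in Prom1/CD24. It fell by 2.47 on the log2 scale (limma adjusted p = 0.00143), and the other wells differed by -3.05. Prom1/CD24 library 1 held only 2 cells and 5078 transcripts, and 1 of the cells held the haemoglobin transcripts. Its value of 196 for Lars2, and for Apoe and Camk2n1 below, thus rests on very few transcripts. Lars2, a mitochondrial leucyl-tRNA synthetase gene, was at 3604, 2333, 1804 and 3460 in Troy/GFP, at 2668, 2293, 3509 and 2992 at day 60 and at 196, 299, 758 and 319 in Prom1/CD24. The Prom1/CD24 libraries lay below all others in both comparisons (log2 change -2.66 ± 0.43, SE, limma adjusted p = 0.00143 against Troy/GFP, and 2.75 ± 0.44, limma adjusted p = 0.00217, for day 60 over Prom1/CD24). In the other wells the changes were -3.95 and 3.18.

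Apoe, a lipid carrier known from astrocytes, was at 4458, 1863, 2219 and 4169 scaled CPM in Troy/GFP and at 196, 674, 691 and 801 in Prom1/CD24, and fell by 2.21 (limma adjusted p = 0.0110). The other wells differed by -1.64, and the limma adjusted p was 0.0520 without Troy/GFP library 1 and 0.0557 with at least 3 cells a library. Markers of astrocytes and quiescent stem cells, at a median of 30.7 per 10000 in Troy/GFP endothelial cells and 16.9 in Prom1/CD24, moved with it, and their part in it was not tested. Camk2n1, an inhibitor of CaM kinase II, was at 138, 0, 0 and 110 in Troy/GFP and at 196, 676, 312 and 1217 in Prom1/CD24, a log2 change of 3.34 ± 0.75 (limma adjusted p = 0.0411), against 0.26 in the other wells. The call was lost in 11 of 18 alternative fits, with adjusted p between 0.00441 and 0.383; it was lost without Troy/GFP library 1, 2 or 3, without Prom1/CD24 library 1, 2 or 4, and without day 60 library 1 or 2. In a further 2 fits, with a threshold of 30 per 10000 or with at least 3 of the 6 genes found, it had too few transcripts to be tested. The antisense RNA 2900060B14Rik fell by 3.29 (limma adjusted p = 0.0213) and by 3.72 in the other wells; this call was lost in 6 alternatives, among them those without Troy/GFP library 1 and without Prom1/CD24 library 1, 3 or 4 (limma adjusted p up to 0.157).

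Gm1821, a transcribed pseudogene of GRCm38 chr14:46084028-46085000, was at 625, 1248, 598 and 703 scaled CPM in day 60 libraries, at 110, 62.1, 66.1 and 0 in Troy/GFP and at 0, 74.6, 0 and 0 in Prom1/CD24. Day 60 was higher without overlap in both comparisons (log2 change 3.33 ± 0.58, limma adjusted p = 0.00882, and 3.66 ± 0.68, limma adjusted p = 0.0100), and the other wells differed by 4.97 and 4.04. The first call was lost without Troy/GFP library 1 or 2 (limma adjusted p = 0.0682 and 0.0667) and within run A (0.417), and without the cells in which markers of another cell type led (0.0520), where a different gene passed, Bsg, a barrier glycoprotein, lower at day 60 (log2 change -1.48 ± 0.25, limma adjusted p = 0.00776, against -1.30 and 0.254 over all cells). The call against Prom1/CD24 was lost without Prom1/CD24 library 3 or 4 (0.0655 and 0.0630). Pseudogenes share reads with their parent genes, so its level is uncertain. Rn45s, the ribosomal RNA precursor, was higher at day 60 than in Prom1/CD24 (1.47, limma adjusted p = 0.0120; 1.97 in the other wells); this call was lost without Prom1/CD24 library 3 or 4 and without day 60 library 2 or 4 (limma adjusted p from 0.0566 to 0.0655), with a limma trend in place of voom (0.0614) and within run A (0.0836).

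Several genes of vessel biology came close without passing, and were chosen after their values were seen. Between day 60 and Troy/GFP, the libraries did not overlap for 86 of the 1287 genes tested, so a lack of overlap is not particular to these genes. Ifitm3, an interferon-induced membrane protein, was at 389, 719, 865 and 664 scaled CPM in Troy/GFP and at 2574, 3342, 1239 and 2780 at day 60; the libraries did not overlap (log2 change 1.83 ± 0.39, limma adjusted p = 0.0644). B2m, the MHC class I light chain, was at 1447, 2316, 1466 and 1445 against 6338, 6980, 3988 and 2427, also without overlap (1.41 ± 0.33, limma adjusted p = 0.0744); the other wells of these libraries differed by 1.51. Nrp1 (2.47, adjusted p = 0.103) and Ehd4 (3.35 ± 0.76, adjusted p = 0.0744, both limma) were highest in day 60 libraries 2 and 3, which hold 3 of the Plvap cells. Without the Plvap cells the day 60 cells had Nrp1 at 653 and Ehd4 at 333 CPM, against 6629 and 2391 in the 3 Plvap cells and 269 and 76.9 in Troy/GFP endothelial cells. In the other wells Nrp1 was also higher at day 60 than in Troy/GFP (1.52, limma adjusted p = 0.00665).

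The sorts also differed in their mice. Y-linked transcripts were at 336 CPM in Troy/GFP endothelial cells and at 0 at day 60 and in Prom1/CD24, while Xist was at 0 in the first and at 127 and 88.6 in the others. Against Troy/GFP, sex, genotype and, for 2 Troy/GFP libraries, the run therefore cannot be told apart from the sort. In pairs with day 60, age, tamoxifen and genotype cannot be told apart from it. Troy/GFP and Prom1/CD24 mice were of the same age, 8 to 10 weeks, and day 60 and Prom1/CD24 cells had the same sex-linked pattern. Ttr, a choroid plexus transcript, was at 67.3, 1309 and 672 CPM in endothelial cells of the 3 sorts and at 137, 9985 and 5338 in their other wells.

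**Figure D5:**
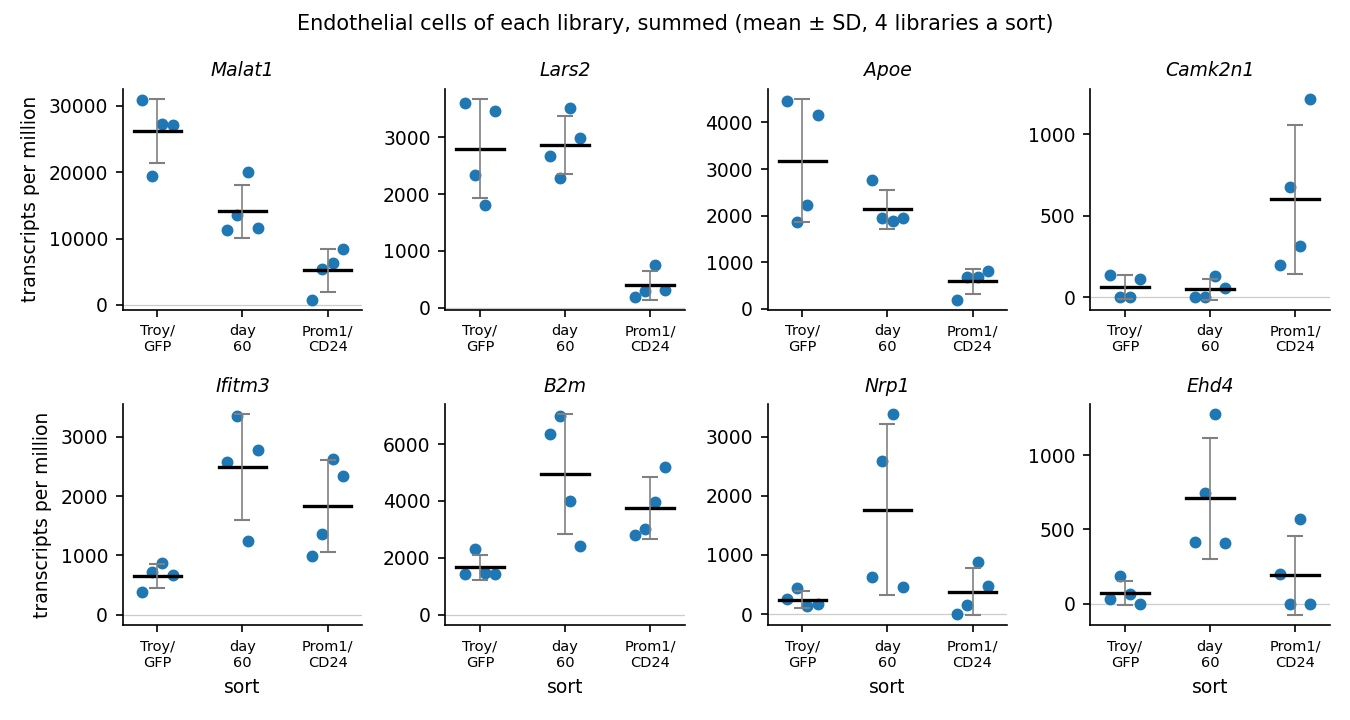
Scaled transcripts per 1000000 (vertical axes) of 8 genes in the summed endothelial cells of each library (points), with the mean ± SD of 4 libraries a sort. Malat1, Lars2, Apoe and Camk2n1 passed between Prom1/CD24 and Troy/GFP; Ifitm3, B2m, Nrp1 and Ehd4 did not pass in any pair.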

How the data were processed

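The deposited tables hold, per gene and well, estimated transcripts, which the authors made from reads mapped with BWA 0.6.2-r126 to mm10, per the submitters' processing notes; counting 256 random barcodes with a correction for collisions follows from the values, of which 4800995 of 4801006 fit it. These other units are not whole counts, so count models were not used. Each table has 17690 gene rows, 87 ERCC rows and 0 mitochondrial rows. The members and gene lists were chosen with earlier results of these data known. Named were the genes of the rule and of the sorts, up to 6 members of each list by level, 12 genes outside the lists by ratio, genes past the threshold between sorts, and markers of other cell types at high levels.

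Members' transcripts were summed per library and tested with limma 3.58.1 (R 4.3.3) voom, for genes with at least 5 transcripts in 3 libraries and 15 in all. Shares were compared by exact permutation tests. The fit was tested on simulated data. The highest cosine similarity of wells was 0.825 between libraries and 0.828 within one, and all libraries use the same 96 well numbers. Library numbers were not used to pair the samples in the main fit. Doublets were not called. Alternatives changed the thresholds, filters, scaling, test, libraries and the promoter motif.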

Additional observations from a re-analysis of the deposited data

Results flagged for a closer look

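Over 58 groups of 4 libraries, 10 held a library whose gap to the nearest other exceeded Dixon's critical value of 0.829 of the range; chance flags about 1 in 20 groups. The endothelial share of mixed day 60 library 4 was 7.89% of passing wells, the highest of its sort. In scaled CPM of summed endothelial cells, the libraries that stood apart at day 60 were library 1 for Apoe (2765), library 3 for Cd24a (2704), and library 2 for Gm1821 (1248) and Iigp1 (1244), an interferon-induced GTPase. The Plvap cells of day 60 library 3 held 21.9 and 45.9 Cd24a transcripts. In Troy/GFP, library 2 stood apart for B2m (2316) and Cd24a (187), and library 4 for Ttr (385). In Prom1/CD24, library 2 stood apart for Gm1821 (74.6) and library 3 for Ttr (1707).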

How the results depend on the processing

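Shares by sort and their pair counts moved by less than the spread between libraries (counts by less than 1.5 times) in 145 of 147 alternative results, a wide margin for the mixed and GLAST/EGF sorts, whose SD exceeds their mean. A single pair can change within this margin: with a threshold of 30, Prom1/CD24 and Troy/GFP libraries overlap. As a share of all wells Prom1/CD24 was 3.65%, GLAST/EGF was 0.781% and 7 pairs did not overlap. Leaving out 1 library gave 8.47 to 10.1% for Troy/GFP, 0.538 to 1.96% for GLAST/EGF, 3.08 to 4.96% for day 60, 0.402 to 3.03% for the mixed sort, 18.9 to 24.3% for Prom1/CD24, 0 for Ki67-RFP and day 2, and 11 to 13 pairs without overlap with 0 passing. The mixed share was 0.402% without library 4 and the GLAST/EGF share 0.538% without library 2. Genes at least 4 times higher (819) and at least 4 times lower (671) became 1315 and 1800 at 2 times and 518 and 133 at 8 times. Single log2 ratios reversed for Vtn (3.83) to -2.64, -2.67 and -2.45 and for Dcn (3.74) to -2.35, -2.38 and -2.59 with a threshold of 30, with 3 rule genes required and without cells dominated by other markers; in the last, Hba-a1 (12.86) became -2.11 and Hbb-bs (12.21) -1.46. These genes came from few cells. The shorter promoter motif AGGAAG, added after the windows were read, raised the genes with a match from 1 to 4.

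Between sorts, day 60 against Troy/GFP, Prom1/CD24 against Troy/GFP and day 60 against Prom1/CD24 gave 28, 143 and 29 genes with no filter on low values. The second gave 2 with at least 3 cells a library. Run A alone gave 0 and 3 for the first and second. Leaving out 1 library gave 0 to 5, 2 to 7 and 1 to 5; the first fell to 0 without Troy/GFP library 1 or 2. The replicate block, by library number, gave 10 and 15 genes for the first and second. Same-numbered libraries correlated between -0.05 and 0.14 and other pairs between -0.14 and 0.10, and 5 of 12 libraries correlated best with their own number. As these ranges overlap widely, the check cannot decide whether the numbers pair libraries. The causes were not tested. Malat1 and Lars2 passed in Prom1/CD24 against Troy/GFP in every one of 21 settings. The setting without cells led by another cell type's markers is not among them. Too few Prom1/CD24 libraries then kept at least 2 cells, so no Prom1/CD24 call was checked that way.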
